A study of Mus musculus with 3 samples.

Results

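The 8 genes described here are Trp63, Tfap2a, Tfap2c, Sfn, Perp, Fermt1, Bcl11b and Rerg, a set of transcription factors and effectors known from basal and stratified epithelia. They were found by symbol among the 52661 gene identifiers of the deposited tables, and all 8 were present. They were partly selected on their CPM and TPM in the PDPN+ library, with earlier results known, so their levels and ratios across the libraries are a description and no support for a pattern. The RNA came from mouse mammary cells that the labels call PROCR+ epithelial cells, with 1 bulk RNA-seq library for each of 3 sorted populations. Every population was EpCAM+ and high for CD49f. The CD36+ library was CD36+ and PDPN- and is titled Cdh5+, the PDPN+ library was CD36- and PDPN+ and is titled Cdh5-, and the double-negative library was negative for CD36 and PDPN and is titled Cdh5+. The strain and age of the mice, the number of animals or cells behind a library, and which preparation kit served which library are not stated in the sources used here.

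p63, the product of Trp63, is a transcription factor of the p53 family that keeps the basal layer of stratified and glandular epithelia. It is made from separate start sites as TA forms, which carry an N-terminal transactivation domain, and as ΔN forms, which lack it and prevail in basal epithelial cells. AP-2 alpha and AP-2 gamma, the products of Tfap2a and Tfap2c, are transcription factors of ectoderm and mammary epithelium. Sfn (14-3-3 sigma), Perp (a desmosomal membrane protein) and Fermt1 (kindlin-1, an activator of integrins) are known as p63 targets in skin. Bcl11b is a zinc finger factor known from T cells, skin and basal mammary cells, and Rerg is a small Ras-like GTPase first described as an estrogen-regulated gene in breast cancer.

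Estimated counts totalled 67675778 in the CD36+, 63871266 in the PDPN+ and 51138993 in the double-negative library. Levels are in CPM, counts scaled to a common library size with TMM factors, and levels of different genes are compared only in TPM, which is corrected for transcript length. With 1 library per population no value has a replicate error, no test between populations was possible, and each difference compares libraries. Where 3 levels of a gene follow each other, their order is CD36+, PDPN+, double-negative. In bulk RNA, fewer cells of a type and less RNA per cell cannot be told apart. Intervals cover counting error only (exact, 95%). Markers of another cell type were read beside the epithelial label. Summed over 10 blood endothelial markers, the level was 6160 CPM for CD36+, 133 CPM for PDPN+ and 4203 CPM for double-negative cells. Summed over 10 basal mammary markers, of which Trp63 is 1, it was 98.4, 6024 and 245 CPM. The libraries labelled as CD36+ and double-negative epithelial cells thus held endothelial markers at higher, and basal ones at lower, summed levels than the PDPN+ library. From which cells these came was not tested.

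Because the deposited tables hold 1 row for all Trp63 transcripts, TA and ΔN forms cannot be told apart in them. GENCODE M21 lists 8 Trp63 transcripts on mm10, and 4 of them open their coding sequence at each of 2 positions on chromosome 16, 25684290 for the TA start and 25802060 for the ΔN start. The first 60 coding bases of a transcript of each kind are shown because they carry the difference that the gene-level value hides. The start codon is in capitals.
Trp63-208 (TA start): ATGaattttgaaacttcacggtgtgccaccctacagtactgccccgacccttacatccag
Trp63-201 (ΔN start): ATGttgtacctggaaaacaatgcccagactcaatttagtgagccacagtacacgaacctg

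RefSeq promoter windows (build GRCm38.p6) were found for 4 of the 8 genes, Sfn, Fermt1, Bcl11b and Tfap2a, the last with 2 start sites. The 250 bases before the RefSeq start of Sfn and Fermt1 are shown, since these are the most abundant of the 4 by TPM in the PDPN+ library. The AP-2 core motif GCCNNNGGC was searched on both strands, and its match in the Fermt1 window is in capitals.
Sfn, chr4:133602169-133602418, minus strand: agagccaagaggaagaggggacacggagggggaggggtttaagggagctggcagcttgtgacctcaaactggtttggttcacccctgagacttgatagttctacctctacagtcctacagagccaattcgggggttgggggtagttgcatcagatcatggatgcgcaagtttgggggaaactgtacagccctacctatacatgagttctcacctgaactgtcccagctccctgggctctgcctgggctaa
Fermt1, chr2:132946037-132946286, minus strand: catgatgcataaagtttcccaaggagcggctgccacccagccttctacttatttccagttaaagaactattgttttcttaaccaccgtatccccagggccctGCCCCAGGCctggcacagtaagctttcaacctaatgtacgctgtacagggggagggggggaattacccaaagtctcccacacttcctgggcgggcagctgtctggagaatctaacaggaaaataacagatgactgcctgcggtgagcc

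The AP-2 match began 148 bases before the RefSeq start of Fermt1. Bcl11b held a match that began 27 bases before its RefSeq start, but the GENCODE transcript Bcl11b-201 starts further upstream, at 108003602, so that the match lies inside that transcript. The motif occurred in 2 of the 5 windows of these genes and in 13.7% of all 32851 promoter windows of the same length. The p53 family half-site, searched by its degenerate consensus on both strands, occurred in 0 of the 5 windows and in 7.13% of all windows, and TATAAA in 0 of 5 and in 12.4%. A match describes letters in the window and is no evidence of a bound factor, and the absence of one says only that these letters are not there.

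In the PDPN+ library 7 of the 8 genes stood at least 4-fold above the CD36+ library with at least 10 CPM in the higher one, the rule used for calling a gene apart, and 0 stood below it. Over all 9387 genes with at least 10 CPM in either library, 17.6% were apart in that direction and 15.1% in the other. Against the double-negative library 7 genes were also apart with a higher level in the PDPN+ library, beside 19.3% of 9515 genes, and 0 were apart in the other direction, beside 15.0%. These counts follow from how the genes were chosen, and the 2 comparisons share the PDPN+ library. The exceptions differed. Tfap2a was within 1.10-fold between the PDPN+ and CD36+ libraries, and Bcl11b was 2.16-fold apart between the PDPN+ and double-negative libraries. Between the CD36+ and double-negative libraries, 7 of the 8 genes reached 10 CPM in either. Of these, 6 were apart with the higher level in the double-negative library, beside 12.0% of 8968 genes, and 1, Tfap2a, with the higher level in the CD36+ library, beside 12.3%. The median log2 ratio of the 8 genes was 11.90 for the PDPN+ over the CD36+ library (11.59 with Perp and Rerg at the floor of 3 counts), 3.64 for the PDPN+ over the double-negative library and -7.41 for the CD36+ over the double-negative library, against 0.02, 0.11 and 0.11 over all genes compared.

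**Figure D1:**
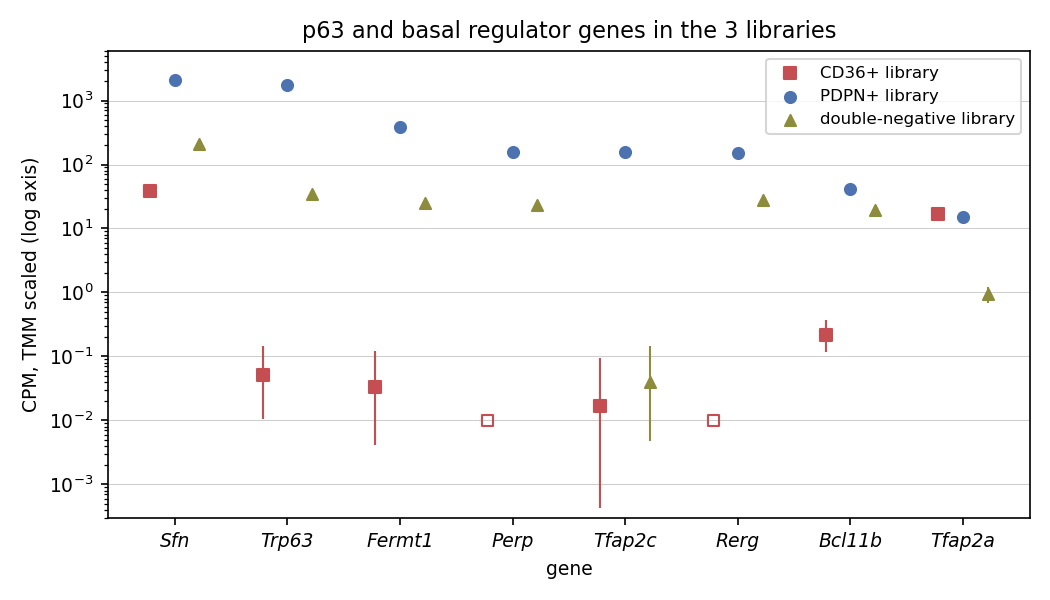
Level of each of the 8 genes (CPM after TMM scaling, log axis) in the CD36+ (square), PDPN+ (circle) and double-negative (triangle) library, with exact 95% counting intervals and open symbols at an arbitrary height for 0 counts. Every gene but Tfap2a has its highest symbol in the PDPN+ library, with Sfn at 2108 and Trp63 at 1753 CPM, and Tfap2a is the gene whose CD36+ symbol lies beside its PDPN+ symbol.

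Among the transcription factors, Trp63 (chromosome 16, 25683763 to 25892102, plus strand of mm10) had 3 counts in the CD36+ library, or 0.0507 CPM, against 1753 CPM in the PDPN+ and 34.1 CPM in the double-negative library. The PDPN+ library was high, the double-negative library intermediate and the CD36+ library near the limit of detection, and no counting intervals overlapped. In the PDPN+ library Trp63 ranked 138 of all genes by TPM. The PDPN+ level was 34582-fold the CD36+ level (11833 to 167695), or 72176-fold by TPM, and 51.4-fold the double-negative level (49.1 to 54.0). The double-negative level was 672-fold the CD36+ level (229.6 to 3263). The wide first and last intervals come from the 3 counts in the CD36+ library.

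Tfap2c (chromosome 2, 172549593 to 172558622, plus strand) had 1, 11425 and 2 counts, or 0.0169, 154 and 0.0396 CPM. It was high in the PDPN+ library alone of the 3, and its intervals in the other two overlapped. The PDPN+ level was 9145-fold the CD36+ level (1641 to 361253) and 3899.9-fold the double-negative level (1079 to 32207). Tfap2c thus differed from Trp63 in the double-negative library, where its level was 0.0256% of the PDPN+ level and that of Trp63 was 1.94%.

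Tfap2a (chromosome 13, 40715302 to 40738376, minus strand) stood at 16.6 CPM (CD36+), 15.2 CPM (PDPN+) and 0.931 CPM (double-negative). The CD36+ and PDPN+ libraries held like levels, and the double-negative library was low with 47 counts. The CD36+ level was 1.10-fold the PDPN+ level (1.005 to 1.19) with TMM scaling. The direction of that gap turned under total counts, where the log2 ratio of PDPN+ to CD36+ was 0.27, and by the deposited TPM, at 9.70 in the PDPN+ and 6.15 in the CD36+ library. The double-negative library stood 17.8-fold below the CD36+ library (13.3 to 24.4; 10.7-fold by TPM) and 16.3-fold below the PDPN+ library (12.2 to 22.3).

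Bcl11b (chromosome 12, 107910403 to 108003602, minus strand) stood at 0.220 CPM (CD36+), 42.0 CPM (PDPN+) and 19.4 CPM (double-negative). The PDPN+ and double-negative levels were the closest of any of the 8 genes between these libraries, with intervals that did not overlap. The PDPN+ level was 2.16-fold the double-negative level (2.01 to 2.32) and 191-fold the CD36+ level (112 to 359.6). Since Bcl11b is also a T cell factor, 12 T cell markers were read beside it. Their summed level was 56.1, 58.9 and 59.6 CPM, with 1, 2 and 2 of them at 10 CPM or more. The 2 in the PDPN+ library were Tcf7 at 31.2 CPM and the T cell receptor gene Trbc2 at 11.6 CPM, both with 0 counts in the other libraries. Others were lower there, with Lck, a T cell kinase, at 32.8, 4.06 and 18.2 CPM and Cd247 at 8.92, 0 and 19.8 CPM. Cd2 had 0 counts in all 3 libraries, and Cd3e, a chain of the T cell receptor complex, had 0, 1 and 0 counts. The part of T cells in the Bcl11b level was not tested.

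Among the effectors, Sfn (chromosome 4, 133600556 to 133602168, minus strand) stood at 38.1 CPM (CD36+), 2108 CPM (PDPN+) and 213 CPM (double-negative). All 3 libraries expressed it above 10 CPM, in the order PDPN+, double-negative and CD36+, with separate intervals. The PDPN+ level was 55.3-fold the CD36+ level (53.03 to 57.7) and 9.91-fold the double-negative level (9.72 to 10.1), and the double-negative level was 5.58-fold the CD36+ level (5.33 to 5.84). By TPM Sfn was the most abundant of the 8 genes in every library, at 2281 in the PDPN+, 179 in the double-negative and 29.5 in the CD36+ library, and it ranked 33 of all genes in the PDPN+ library.

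Perp (chromosome 10, 18845020 to 18857073, plus strand) had 0 counts in the CD36+ library, where the floor of 3 counts is 0.0507 CPM, and stood at 159 CPM in the PDPN+ and 23.1 CPM in the double-negative library. The CD36+ library lacked detectable reads, and the double-negative library lay between. The PDPN+ level was at least 3129.6-fold higher than the CD36+ level, computed against the floor of 3 counts in that library, and 6.87-fold the double-negative level (6.47 to 7.30). Fermt1 (chromosome 2, 132904389 to 132945906, minus strand) had 2 counts, or 0.0338 CPM, in the CD36+ library, and stood at 391 CPM in the PDPN+ and 24.7 CPM in the double-negative library. It followed the same order as Perp, with the PDPN+ level 15.8-fold the double-negative level (15.0 to 16.8), or 42.6-fold by TPM, and 11584-fold the CD36+ level (3207 to 95660.3), or 28469-fold by TPM.

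Rerg (chromosome 6, 137054825 to 137170497, minus strand) had 0 counts in the CD36+ library and stood at 154 CPM in the PDPN+ and 27.7 CPM in the double-negative library. The PDPN+ level was at least 3037-fold higher than the CD36+ level and 5.56-fold the double-negative level (5.26 to 5.88), and the double-negative level was at least 546-fold higher than the CD36+ level. Per length, the order of the 8 genes in the PDPN+ library was Sfn at 2281 TPM, Trp63 at 893, Fermt1 at 268, Perp at 139, Rerg at 116, Tfap2c at 91.9, Tfap2a at 9.70 and Bcl11b at 8.18. In the double-negative library it was Sfn at 179, Rerg at 16.2, Perp at 15.7, Trp63 at 12.1, Fermt1 at 6.30, Bcl11b at 2.96, Tfap2a at 0.575 and Tfap2c at 0.0188 TPM. Trp63 thus stood second among the 8 in the PDPN+ library and below Rerg and Perp in the double-negative library. The place of Fermt1 in the PDPN+ order depends on the transcript lengths its reads were assigned to, given below.

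As a share of the PDPN+ level in CPM, the 8 genes spread widely in the double-negative library. Bcl11b stood at 46.3%, Rerg at 18.0%, Perp at 14.6% and Sfn at 10.1%. Fermt1 at 6.31%, Tfap2a at 6.14%, Trp63 at 1.94% and Tfap2c at 0.0256% were lower. The genes therefore did not share 1 ratio between these libraries. Among basal markers that are not in the set, Krt14, the basal keratin, stood at 123 against 1425 CPM and Krt17 at 30.4 against 1045 CPM in the double-negative and PDPN+ libraries, and 5 of the 10 basal markers reached 10 CPM in the double-negative library. What part basal cells had in the levels of the double-negative library was not tested. In the CD36+ library the shares were 110% for Tfap2a, 1.81% for Sfn, 0.523% for Bcl11b, and 0.0109% or less for the other 5.

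**Figure D2:**
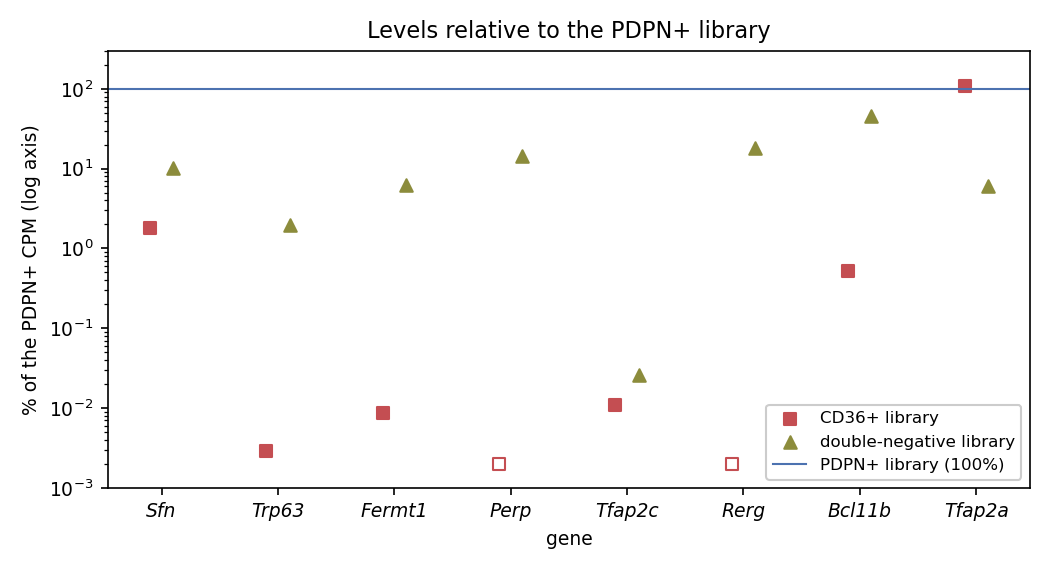
CPM of each gene in the CD36+ (square) and double-negative (triangle) library as a percentage of its PDPN+ level (line at 100%, log axis), with open symbols at an arbitrary height for 0 counts. The double-negative symbols range from 0.0256% for Tfap2c to 46.3% for Bcl11b.

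The families of these genes were examined next, since paralogs can be used side by side. Of the p53 family, Trp53, the tumour suppressor p53, stood at 94.7, 83.4 and 95.1 CPM, within 1.14-fold in each pair, while Trp73 had 2, 1 and 1 counts. By TPM Trp53 stood at 63.5, 77.0 and 71.1, so that the PDPN+ library went from lowest to highest. Of the AP-2 family, Tfap2b (AP-2 beta) stood at 3.95, 176 and 0.733 CPM. By TPM it lay beside Tfap2c in the PDPN+ library, at 90.5 against 91.9. Its PDPN+ level was 44.4-fold the CD36+ level (39.0 to 50.8) and 239.6-fold the double-negative level (174 to 340.4), the latter 129-fold by TPM. Tfap2d had 0, 1 and 0 counts and Tfap2e had 0 in all 3 libraries. Of the BCL11 genes, Bcl11a stood at 16.2 CPM in the PDPN+ library with 3 counts in the CD36+ and 2 in the double-negative library. Bcl11a was therefore near the limit of detection in the double-negative library, where Bcl11b held 982 counts.

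The 14-3-3 and kindlin families held members at like levels in all libraries. The other 6 genes for 14-3-3 proteins, adaptors that bind phosphorylated partners, were within 2.62-fold in every pair, and 0 of them were apart. Of all genes, 17.6% were apart as higher in the PDPN+ and 15.1% as higher in the CD36+ library. For PDPN+ against double-negative the shares were 19.3% and 15.0%, and for CD36+ against double-negative 12.3% and 12.0%. Ywhaz stood at 1708, 1336 and 912 CPM, and Ywhah at 922, 357 and 935 CPM, the latter lower in the PDPN+ library. Fermt2 (kindlin-2, the widely expressed kindlin) stood at 498, 466 and 455 CPM, and Fermt3, the kindlin of blood cells, at 0, 20 and 1 counts. Fermt1 was thus the kindlin whose level set the libraries apart. Of the relatives of Rerg, Rasl12 stood at 23.1 CPM in the PDPN+ library with 9 and 10 counts in the CD36+ and double-negative libraries, while Rasd1 stood at 52.9, 6.84 and 0.337 CPM. Rergl had 0, 0 and 1 counts.

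**Figure D3:**
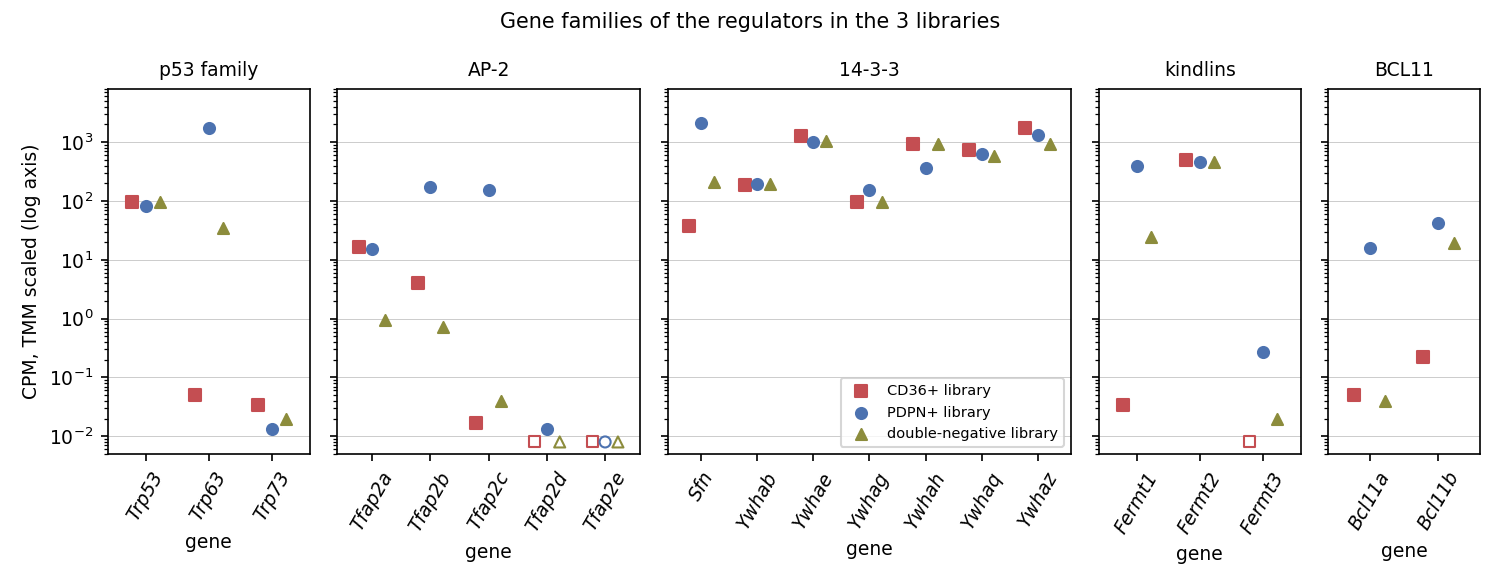
Levels (CPM after TMM scaling, log axis) of p53 family, AP-2, 14-3-3, kindlin and BCL11 genes in the 3 libraries, with symbols as in the key and open symbols for 0 counts. Trp53, Fermt2 and the 14-3-3 genes other than Sfn and Ywhah lie at like levels in all libraries, and Ywhah is lower in the PDPN+ library. Trp63, Tfap2b, Tfap2c, Fermt1, Bcl11a and Sfn are highest in the PDPN+ library.

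Genes known as p63 targets were read as a list, chosen with earlier results of these data known. Krt5, Krt14, Lama3 and Itgb4 on it are also among the basal markers, so these lists are not independent. Of 24 p63 target genes outside the set of 8, all reached 1 CPM in some library. Against the CD36+ library, 18 of the 23 with at least 10 CPM in either library were apart with the higher level in the PDPN+ library and 0 in the other direction (median log2 ratio 4.60, against 0.02 over all genes, of which 17.6% and 15.1% were apart). Against the double-negative library the numbers were 19 of 23 and 0 (median 3.62, against 0.11, with 19.3% and 15.0% of all genes apart). Jag2, among these 19, stood at 21.5 CPM in the PDPN+ and 5.23 CPM in the double-negative library. By TPM it stood at 7.97 and 13.8, so its order turned with the unit. Krt14 had 11 counts in the CD36+ library and its PDPN+ level was 11.6-fold the double-negative level (11.3 to 11.9). Jag1, a Notch ligand, stood at 168, 924 and 159 CPM, a like level in the first and last. Itga6, whose product CD49f was part of the gate of every population, stood at 436, 1021 and 399 CPM and was not apart in any pair. Between the CD36+ and double-negative libraries, 14 of the genes could be compared, 2 were apart with the higher level in the CD36+ library and 4 with the higher level in the double-negative library, beside 12.3% and 12.0% of all genes.

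Named after their values were seen, the 2 of these higher in the CD36+ library were Krt5, at 18.4 against 3.03 CPM, and Itgb4, the integrin chain of hemidesmosomes, at 16.1 against 0.812 CPM. Itgb4 stood at 13.4 CPM in the PDPN+ library and so shared with Tfap2a a CD36+ level close to the PDPN+ level. The 4 higher in the double-negative library were Krt14, Cdh3, Pthlh and Serpinb5. Pthlh, the gene of parathyroid hormone-related protein, stood at 0, 18.2 and 22.6 CPM, and at 0, 19.8 and 19.1 by TPM, so that the order of the PDPN+ and double-negative levels turned with the unit. Egfr, the EGF receptor gene, also chosen after its values were seen, stood at 0.422, 92.7 and 0.396 CPM.

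**Figure D4:**
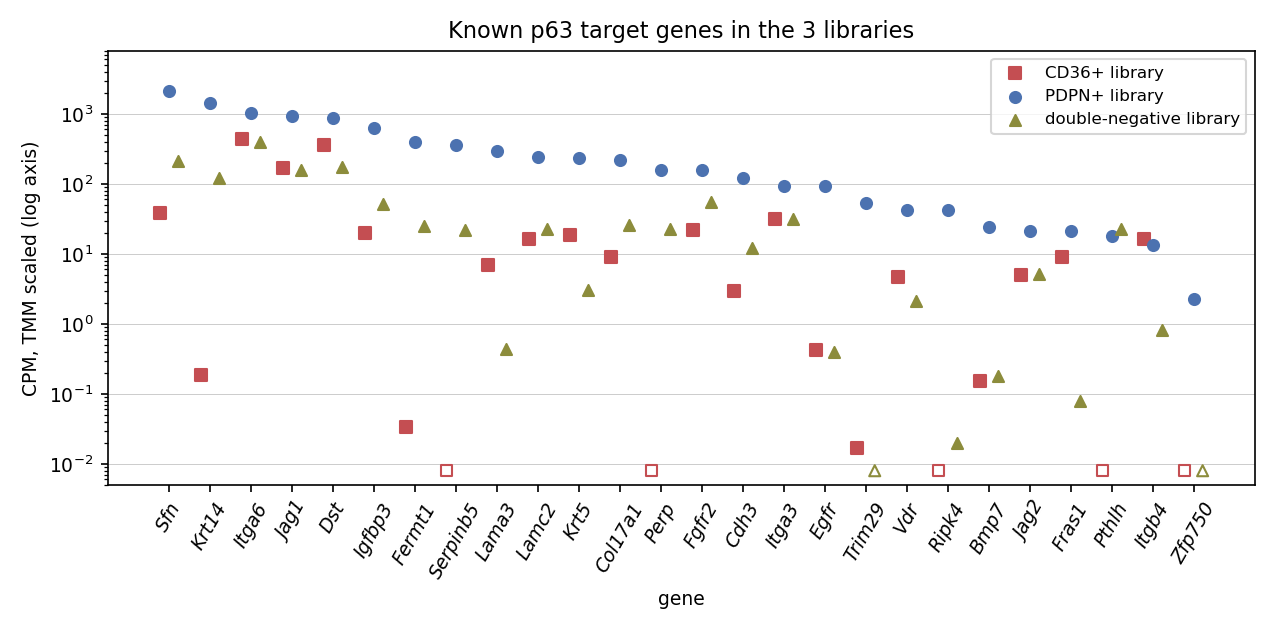
Levels (CPM after TMM scaling, log axis) of 26 genes known as p63 targets in the 3 libraries, in order of the PDPN+ level, including Sfn, Perp and Fermt1 of the set, with open symbols at an arbitrary height for 0 counts. The PDPN+ circle is the highest symbol of each gene other than Pthlh and Itgb4.

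RNA levels of genes whose proteins act on p63 or p53 gave a mixed picture. Of 8 genes for p63 stability regulators with at least 10 CPM in either library, 4 were apart with the higher level in the PDPN+ than in the CD36+ library and 0 in the other direction, beside 17.6% and 15.1% of all genes. Against the double-negative library it was 1 of 9 in each direction, a share below that of all genes (19.3% and 15.0%). Itch, a ubiquitin ligase for p63, stood at 18.4, 146 and 145 CPM, with the PDPN+ and double-negative levels 1.01-fold apart (0.979 to 1.04; 1.49-fold by TPM). Nedd4 and Chuk differed by 1.40-fold or less in every pair, and by TPM by 2.40-fold or less. Stxbp4, which stabilises ΔNp63, went against its list with 1.47, 1.0 and 26.2 CPM, a double-negative level 26.1-fold the PDPN+ level (20.7 to 33.5). Of the p53 inhibitors, Mdm4 stood at 38.6, 274 and 89.1 CPM and Mdm2 at 61.7, 119 and 103 CPM. Of the ASPP genes, whose products bind p53 family members, Ppp1r13l stood at 7.45 CPM in the PDPN+ library with 2 and 0 counts in the other two, Ppp1r13b at 37.5, 0.433 and 15.98 CPM, and Trp53bp2 at 7.23, 24.1 and 0.0396 CPM.

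Genes known as p53 targets were read in the same way. Outside Sfn and Perp, which also belong to this list, 16 had at least 10 CPM in the PDPN+ or CD36+ library. Of these, 8 were apart with the higher level in the CD36+ library and 2 with the higher level in the PDPN+ library (median log2 ratio of PDPN+ to CD36+ -1.99, against 0.02), beside 15.1% and 17.6% of all genes. Against the double-negative library 2 were apart in each direction (median -1.37, against 0.11), a share below the 19.3% and 15.0% of all genes. Cdkn1a, the cell cycle inhibitor p21, stood at 1025 CPM (CD36+), 206 CPM (PDPN+) and 696 CPM (double-negative), with the PDPN+ library 4.99-fold below the CD36+ library (4.90 to 5.07), or 3.58-fold by TPM, under the 4-fold rule. The 2 higher in the PDPN+ library were Trp53inp1, at 9.43, 212 and 14.6 CPM, and Phlda3, at 6.71, 102 and 25.4 CPM. Sfn and Perp thus lay on the side of these 2 genes.

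Other transcription factors of epithelia were compared with the 4 of the set. Of the other basal factors, 6 of 10 with at least 10 CPM were apart with the higher level in the PDPN+ than in the CD36+ library and 0 in the other direction (median 3.95), beside 17.6% and 15.1% of all genes. Against the double-negative library it was 6 of 9 and 0 (median 2.85), beside 19.3% and 15.0%. Sox9 stood at 29.9, 879 and 57.7 CPM and Runx1 at 8.46, 659 and 11.9 CPM, whereas Nfib was within 1.09-fold in every pair at 563, 584 and 538 CPM. Of 7 factors of epithelia in general, 4 were higher in the PDPN+ than in the CD36+ library and 1 lower, and against the double-negative library it was 5 and 1. Gata3, a factor best known from luminal cells, stood at 5.54, 236 and 4.73 CPM and Klf5 at 74.2, 212 and 42.5 CPM, while Klf4 was highest in the CD36+ library at 179 CPM against 99.8 and 118. Grhl1 and Ehf went the other way, Grhl1 at 13.5, 1.34 and 0.178 CPM and Ehf at 0.135, 1.46 and 15.4 CPM.

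Desmosome genes were read beside Perp. Of 6 others with at least 10 CPM, 4 were apart with the higher level in the PDPN+ library and 0 in the other direction, against the CD36+ and the double-negative library alike. The shares of all genes were 17.6% and 15.1% against the CD36+ library, and 19.3% and 15.0% against the double-negative library. Dsg2 was highest in the double-negative library, at 16.6, 65.1 and 238 CPM, but by less than 4-fold over the PDPN+ library. Dsp (desmoplakin, the linker to keratin filaments) stood at 55.9, 313 and 47.2 CPM, and Pkp1 at 0.0676, 156 and 12.4 CPM. Pkp1 followed the order of Perp, while Pkp4 was within 1.28-fold in every pair at 319, 302 and 249 CPM. Integrin adhesion genes were read beside Fermt1. Of 14 others, 1 was apart with the higher level in the PDPN+ and 3 with the higher level in the CD36+ library, and against the double-negative library it was 1 of 13 in each direction. With shares over all genes of 17.6% and 15.1%, and of 19.3% and 15.0%, these integrin adhesion counts lay near or below the background. Vcl (vinculin) stood at 276, 49.7 and 31.8 CPM and Ilk at 9.34, 54.3 and 72.2 CPM.

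The genes whose pattern was most like that of Trp63 were found among 1845 other protein-coding genes with at least 100 CPM in the PDPN+ library. Likeness was the Euclidean distance between the 2 log2 ratios of a gene (CD36+ over PDPN+ and double-negative over PDPN+) and those of Trp63, over 3 libraries. In order of distance, 9 of the 10 nearest were Serpinb5 (1.90), Fermt1 (2.50), Krt14 (2.73), Tpm2 (2.75), Wif1 (2.94), Id4 (3.17), Plekhb1 (3.47), Perp (3.59) and Rerg (3.87). Of the set, Fermt1, Perp and Rerg were among the 10. The set was partly chosen on its PDPN+ levels, which this ranking also uses. Their places in it are therefore a description and no support for a pattern. Distances of genes with 0 to 3 counts in the CD36+ library depend on the prior count. With a prior count of 0.5, chosen after seeing the data, 9 of the 10 nearest genes were shared, the order changed, and Id4 moved from rank 7 to 11. Tfap2c ranked 25 and Sfn 51, and Tfap2a and Bcl11b were below the minimum level. Serpinb5, the serpin maspin, had 0 counts in the CD36+ library and stood at 357 and 21.6 CPM in the PDPN+ and double-negative libraries. Id4, an inhibitor of basic helix-loop-helix factors, had 7 counts and stood at 352 and 6.79 CPM. Among the 10, its double-negative level relative to the PDPN+ library was nearest to that of Trp63 (log2 ratio -5.69 and -5.68).

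The deposited counts and TPM together give the mean length of the transcripts to which reads of a gene were assigned. For Bcl11b it was 8111 bases in all 3 libraries, the length of Bcl11b-201, the longest of its 3 transcripts in GENCODE M21. For Rerg it was 2227 bases in the PDPN+ and 2249 in the double-negative library, close to the longest of 5 transcripts at 2262 bases. Fermt1 differed, with 2438 bases in the PDPN+ and 4915 in the double-negative library. The latter is the length of its coding transcript Fermt1-201, and its 4 transcripts run from 317 to 5236 bases. Only Fermt1-201 is annotated as coding, and those of 447 and 317 bases are processed transcripts. A mean of 2438 bases needs reads assigned to these short ones. The Fermt1 TPM in the PDPN+ library depends on that assignment. So does its ratio to the double-negative library, 42.6-fold by TPM and 15.8-fold by CPM. For Trp63 it was 3215 bases in the PDPN+ and 3584 in the double-negative library.

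Of the 8 Trp63 transcripts, 4 have 1729 to 2634 bases and end early, and 4 have 4691 to 5366 bases and reach the last exon of the gene. A mean of 3215 bases needs a share of 49.8% to 78.7% of short transcripts in the PDPN+ library, and 3584 bases a share of 37.4% to 65.2% in the double-negative library. The ranges overlapped. Both TA and ΔN starts occur among the short and among the long transcripts, so the mean length does not separate them. Tfap2a went from 3156 bases in the CD36+ library to 2600.0 in the PDPN+ and 2155 in the double-negative library, the last from 47 counts. Lengths rest on the authors' assignment of reads to transcripts and on 1 library each, and library preparation, which cannot be set against the populations here, was not tested as a source of the differences.

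**Figure D5:**
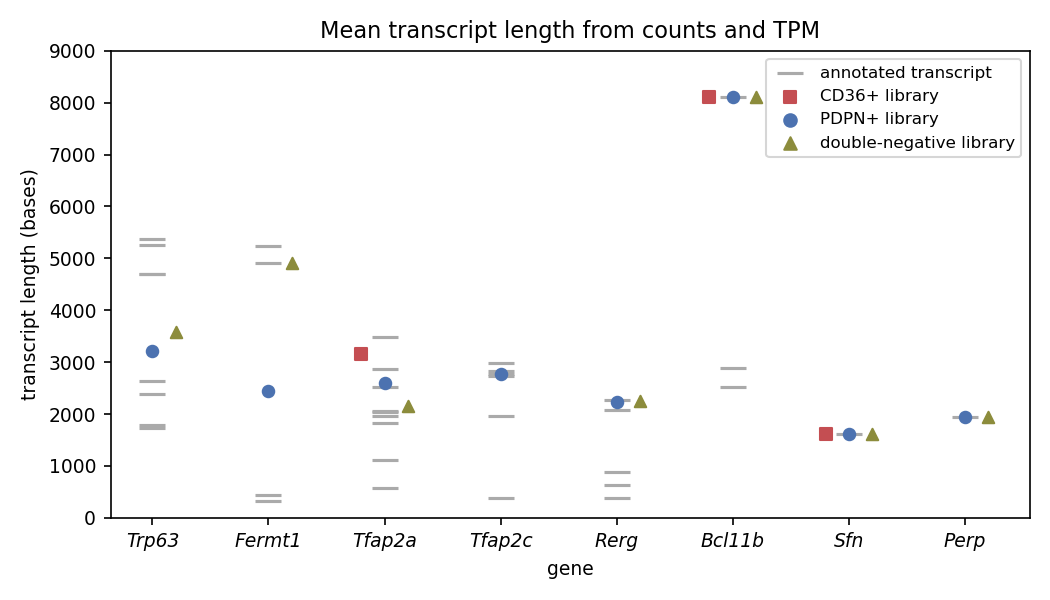
Mean transcript length in bases computed from deposited counts and TPM for each gene with at least 10 counts in a library (coloured symbols), over the lengths of its GENCODE M21 transcripts (grey dashes). The Fermt1 symbol of the double-negative library lies on an annotated transcript at 4915 bases and that of the PDPN+ library at 2438 bases.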

How the data were processed

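Bulk RNA-seq of 3 sorted mouse mammary populations was analysed, 1 library each, grouped by the labels. The authors deposited estimated counts per gene and TPM per library, and per the submitters' processing notes these came from Salmon 0.9.1 on mm10. The annotation release, the strand setting and the kit of each library are not stated in the sources used here, and per the labels' protocols 2 library kits were in use. Estimated counts were rounded. Gene symbols and positions came from GENCODE M21 (52566 identifiers matched without version).

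CPM were computed with edgeR 4.0.16 (TMM factors over all 3 libraries; R 4.3.3), and log2 ratios a prior count of 2. A gene was apart at 4-fold or more with at least 10 CPM in the higher library. Ratios carry exact Clopper-Pearson and levels exact Poisson 95% intervals. A floor of 3 counts was 0.0507 CPM for CD36+, 0.0406 CPM for PDPN+ and 0.0594 CPM for double-negative. The calculation of ratios was tested on simulated data.

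Mean transcript length, a measure chosen after seeing the data as was the split of Trp63 transcripts by length, was counts divided by TPM, scaled on genes with 1 transcript. For genes of several transcripts with over 1000 reads it lay within the annotated range (tolerance 50 bases) in 99.5% to 99.6% of cases. The length column that the authors deposited did so in 56.7% to 57.7%, and was not used.

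The 8 genes and the 22 gene lists were chosen with earlier results of these data known. Named genes were the 8, their paralogs, up to 4 genes per list with the highest PDPN+ level, list genes apart against their list, and the 10 genes nearest to Trp63. A few genes that this rule would name are not reported here by name, and counts over lists include them. Others are said to be chosen later, or come from the marker lists. Alternatives were total counts, DESeq2 1.42.0 size factors, upper quartile scaling, TPM, prior count 0.5, other CPM minimums and a 2-fold rule. Python 3.11.15 was used with numpy 2.4.6, pandas 2.3.3, scipy 1.17.1 and matplotlib 3.10.9.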

Additional observations from a re-analysis of the deposited data

How the results depend on the processing

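With 1 library per population no replicate could be left out. No paired analysis was possible because each group has 1 library. Of 120 recomputed log2 ratios of the 8 genes, 100 had a finite counting interval, of which 73 moved by less than it and 27 by more. The other 20, of Perp and Rerg against the CD36+ library with its 0 counts, had none and move with the prior count (Perp from 12.25 to 14.25 in PDPN+ over CD36+ with 0.5). Of the ratios apart, 0 changed sign. The number of the 8 genes apart stayed within 1.5 times under every scaling, minimum and fold rule, except that by the deposited TPM 0 and not 1 gene was apart with the CD36+ level above the double-negative level, since Tfap2a then lay below 10 TPM. By TPM 6 genes, and not 7, were higher in the PDPN+ library in either comparison, and 4, not 6, higher in double-negative than CD36+ cells. Total counts moved the log2 ratios of PDPN+ to CD36+ by 0.40, of PDPN+ to double-negative by 0.23 and of CD36+ to double-negative by -0.17, and upper quartile scaling moved the first by -0.27 and the second by -0.28. Over all genes, 1656 were higher and 1420 lower in the PDPN+ than in the CD36+ library, 2124 and 1121 under total counts, and 2046 and 1091 by TPM. Set against double-negative cells, PDPN+ cells had 2081 genes higher and 1192 lower by TPM, where TMM gave 1837 and 1425. For the remaining pair, TPM gave 839 genes with the CD36+ level on top and 1058 with the double-negative level on top. TMM gave 1103 and 1075 there. These are counts, and shares of all genes by TPM are not given. For PDPN+ against CD36+, 3076 genes were apart in all, 15901 with no CPM minimum, 6476 with 1 CPM and 5013 at 2-fold. For PDPN+ against double-negative the numbers were 3262, 17233, 6718 and 5292, and for CD36+ against double-negative 2178, 15786, 5364 and 3945. Depth limits Trp63, Tfap2c, Perp, Fermt1 and Rerg in the CD36+ library and Tfap2c in the double-negative library, each at 3 counts or fewer.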

Other observations

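Markers of other cell types varied among the libraries that held these genes. Of 11 skin keratinocyte markers found, the PDPN+ library held Krt15, a basal keratin, at 186 CPM and Lgals7 at 70.0 CPM, while Krtdap, Ivl and Krt77, markers of differentiating skin, had 0 counts in all 3 libraries. The differentiation keratin Krt10 had 0, 570 and 0 counts (7.71 CPM in the PDPN+ library) and Sbsn 3, 40 and 0. In the order CD36+, PDPN+, double-negative, the list summed to 7.38, 265 and 9.57 CPM. Fibroblast markers summed to 117, 682 and 61.8 CPM, with Dcn at 423 CPM in the PDPN+ library. Lymphatic endothelial markers summed to 76.9, 949 and 3535 CPM, of which the sorted Pdpn made 830.2 CPM in the PDPN+ library and the chemokine gene Ccl21a 3463 CPM in the double-negative library. Luminal markers summed to 510, 686 and 442 CPM, of which Krt8 made 326 CPM and Krt18 284 CPM in the PDPN+ library. The median log2 ratio of the 8 luminal markers with at least 10 CPM was -1.46 for PDPN+ over CD36+, opposite to the sum. The summed levels were, for pericyte markers, 259, 70.6 and 189 CPM and, for adipocyte markers, 91.4, 3.19 and 37.5 CPM. Schwann cell markers summed to 7.58, 68.3 and 10.9 CPM, of which Sox10, also a basal factor, made 64.6 CPM in the PDPN+ library. Their part in the levels of the 8 genes was not tested.

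Partners of BCL11 factors in chromatin complexes were read beside Bcl11b. Of 10 such genes, Bcl11a included, 1 was apart between the PDPN+ and CD36+ libraries and 3 between the PDPN+ and double-negative libraries, all higher in the PDPN+ library. Of all genes, 17.6% and 19.3% were apart in that direction, and 15.1% and 15.0% in the other. The 3 were Bcl11a, Mta1 at 24.9 against 0.436 CPM and Mta2 at 37.0 against 4.50 CPM, named after their values were seen. In CD36+ cells Mta1 stood at 11.4 CPM and Mta2 at 92.1 CPM, which for Mta2 was above its PDPN+ level. Mta1 and Mta2 were thus lowest in double-negative cells, by the 4-fold rule also when set against CD36+ cells. Rbbp7, a histone-binding protein gene, stood at 536, 660.1 and 602 CPM. Of 3 AP-2 cofactor and family genes outside the set with at least 10 CPM, 2, Tfap2b and Kctd1, were higher in the PDPN+ library than in either of the other libraries, beside 17.6% and 19.3% of all genes. Cited2, a coactivator of AP-2, stood at 35.1, 12.5 and 19.7 CPM. Of the 4 relatives of Rerg with at least 1 CPM, Rasl12 was higher and Rasd1 lower in the PDPN+ than in the CD36+ library, beside 17.6% and 15.1% of all genes.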
